A study of Homo sapiens with 40 samples.

Results

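The RNA recovered with eIF4A2 was compared directly with the RNA recovered with DDX6, without passing through total RNA. The comparison takes the 3 libraries labelled eIF4A2 IP and the 3 labelled DDX6 IP, chosen by their titles, which are 6 of the 40 libraries of the series and 6 of the 12 libraries of the RNA immunoprecipitation (RIP) experiment. All come from HEK293, an established human embryonic kidney cell line, without siRNA, drug or engineered allele. The endogenous proteins were precipitated from native lysates with an antibody against eIF4A2 or an antibody against DDX6, both on protein G beads, and the RNA was sequenced as stranded poly(A)-selected libraries. The other RIP groups, total RNA and the eIF4A1 IP, are used here only to place levels, and the sucrose gradient and TNRC6A/B siRNA experiments only as readouts that did not enter the comparison. The 2 precipitates differ in the antibody as well as in the target, and no library from a non-specific antibody was analysed here, so target-bound and background RNA cannot be told apart. In bulk libraries, fewer cells holding an RNA and fewer copies of it per cell cannot be told apart either.

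eIF4A2 and DDX6 are both DEAD-box proteins, a family of RNA helicases that bind RNA mainly through its backbone. The paper that reported these libraries found that recombinant eIF4A2 nevertheless preferred a purine-only RNA in vitro. eIF4A2 is a paralog of eIF4A1, the helicase of the cap-binding eIF4F complex that opens mRNA for the scanning ribosome. DDX6 sits in P-bodies with decapping activators, represses translation and promotes decay. Both have been placed on CNOT1, the scaffold of the Ccr4-Not deadenylase complex, so the question of the comparison is which messages are found more with the one helicase than with the other.

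The libraries held 26883978, 31147883 and 39021000 counts in the eIF4A2 IP and 44209592, 43354027 and 45429276 counts in the DDX6 IP, over 55765 gene symbols. The 50 symbols with the most counts took 7.22 to 8.41% of an eIF4A2 IP library and 9.03 to 11.6% of a DDX6 IP library. Replicates of the same IP correlated at 0.983 to 0.993 in log2 level across genes, which are not independent replicates. Libraries of different IPs correlated at 0.965 to 0.987, which overlaps that range. For example, eIF4A2 IP replicate 2 correlated at 0.9871 with DDX6 IP replicate 1 and at 0.9834 with eIF4A2 IP replicate 3. HEK293 identity was checked with 6 markers (VIM, KRT8, KRT18, NEFL, NEFM and PAX2), all counted in every library and all passing the filter on low counts. The 8 counted markers of blood, liver, endothelium and fibroblasts held 0 to 12 counts per library and none passed that filter, with COL1A2 at 0 in 5 of the 6 libraries.

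Of 16830 genes tested, 1392 (8.27%) were higher in the eIF4A2 IP and 1621 (9.63%) were higher in the DDX6 IP at an FDR below 0.05 (edgeR quasi-likelihood test), together 17.9% of the genes. At least 2-fold apart were 526 genes (3.13%) on the eIF4A2 side and 388 (2.31%) on the DDX6 side. The 3 values of one IP lay wholly above the 3 of the other for 3255 genes (19.3%) higher in the eIF4A2 IP and 3605 genes (21.4%) higher in the DDX6 IP, without regard to the test, together 40.8% of the genes. Same-numbered libraries of both IPs deviated together, and a fit with the replicate number as a block called 3290 (19.5%) and 4107 (24.4%) genes, among them all 3013 genes called without it. Most differences were small, since 90% of the log2 fold changes, written throughout as eIF4A2 IP over DDX6 IP, lay between -0.85 and 0.91. The counts rest heavily on single libraries: without eIF4A2 IP replicate 1, 365 and 211 genes were called, without DDX6 IP replicate 2, 516 and 505, without DDX6 IP replicate 1, 549 and 856, and without DDX6 IP replicate 3, 671 and 1026. No called gene changed direction in any of these fits. Of the 3013 called genes, 3011 had IPs without overlap, which largely fixes that outcome in advance. Nothing in the labels says that the replicates were separate cultures, so the p-values measure only the spread between these libraries.

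**Figure D1:**
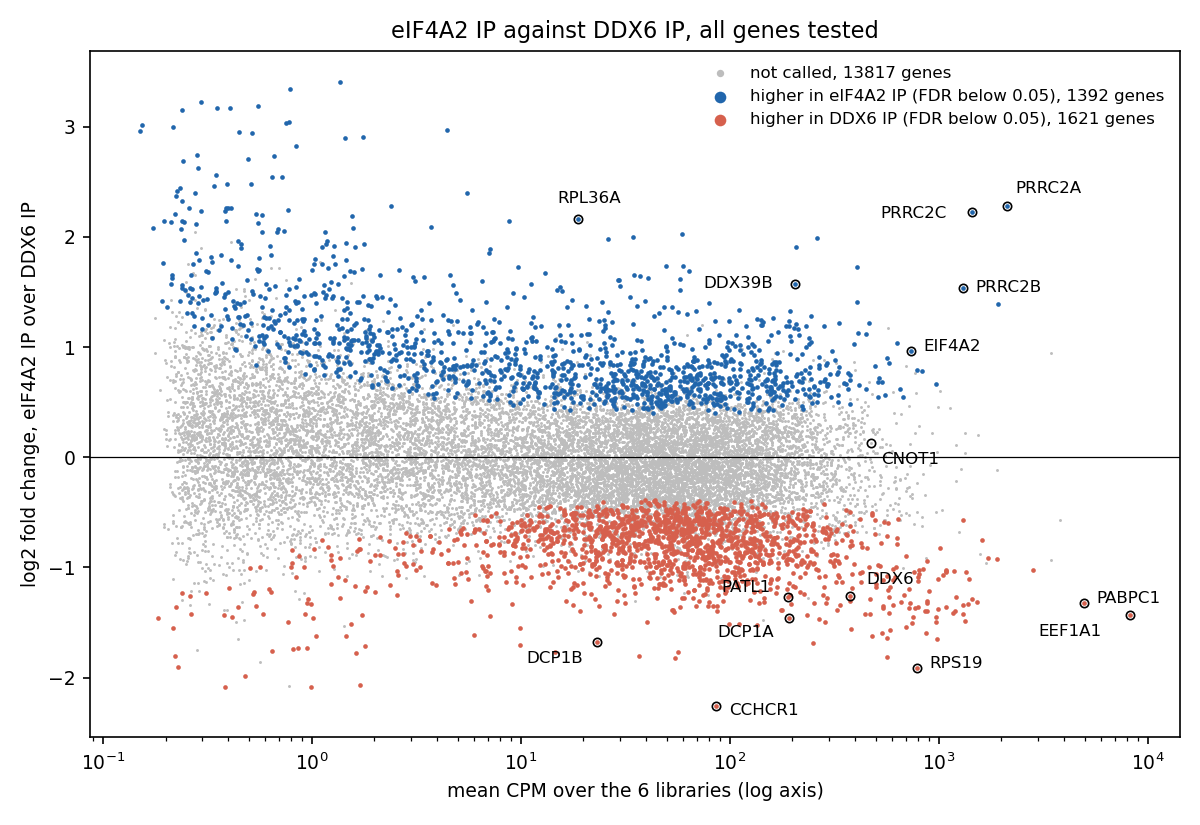
Each point is a gene tested in the 6 libraries, with its mean CPM (counts scaled to a common library size, log axis) on the x axis and its log2 fold change, eIF4A2 IP over DDX6 IP, on the y axis. The 1392 genes higher in the eIF4A2 IP are blue and the 1621 genes higher in the DDX6 IP are red; PRRC2A, PRRC2B and PRRC2C stand far above zero among abundant RNAs, while CCHCR1 and RPS19 stand far below it.

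The mRNA of each precipitated helicase was higher in its own IP. EIF4A2 mRNA was at 894, 880 and 1158 CPM (counts scaled to a common library size with TMM factors) in the eIF4A2 IP and at 502, 520 and 486 CPM in the DDX6 IP. The libraries of the 2 IPs did not overlap, and the difference was 0.96 ± 0.17 on the log2 scale (SE, n = 3 per IP, FDR = 0.0123). DDX6 mRNA was at 230, 225 and 212 CPM in the eIF4A2 IP and at 632, 430 and 535 CPM in the DDX6 IP, again without overlap (-1.26 ± 0.17, FDR = 0.0113). Total RNA held 391 ± 25.8 CPM of EIF4A2 and 172 ± 5.83 CPM of DDX6 (SD, n = 3, scaled over all 12 RIP libraries). EIF4A1, which encodes the paralog of eIF4A2, was called higher in the eIF4A2 IP at a low level, 5.43, 4.32 and 11.1 CPM against 2.49, 1.80 and 2.38 CPM. Its locus on chromosome 17 overlaps the readthrough gene SENP3-EIF4A1 and the snoRNAs SNORA48 and SNORD10, so this value is uncertain. CNOT1 mRNA was at 462, 427 and 596 CPM against 465, 382 and 515 CPM, with overlapping libraries (0.13 ± 0.19, FDR = 0.669).

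The genes that encode PRRC2 proteins, large RNA-binding proteins found with translation initiation factors, were far higher in the eIF4A2 IP. PRRC2A (chr6:31588492-31605548 on GRCh37, plus strand) was at 5620, 3586 and 1327 CPM in the eIF4A2 IP and at 973, 747 and 444 CPM in the DDX6 IP, and gave the largest difference among the genes named by rule (2.28 ± 0.51, FDR = 0.0213). Every eIF4A2 IP library was above every DDX6 IP library, which the rule that named the gene required. Replicate 3 was low in both IPs, and the call was lost without eIF4A2 IP replicate 1 (FDR = 0.0634), DDX6 IP replicate 2 (0.0625) or DDX6 IP replicate 3 (0.0607). PRRC2C was at 3020, 2806 and 1308 CPM against 659, 419 and 444 CPM (2.23 ± 0.34, FDR = 0.0113). PRRC2B was at 2716, 1880 and 1236 CPM against 809, 655 and 546 CPM (1.54 ± 0.30, FDR = 0.0153). All 3 PRRC2 genes were thus called, against 8.27% of all genes, and PRRC2B and PRRC2C were also called in each of the 6 fits that left out a library. In total RNA, PRRC2A stood at 701 ± 95.6 CPM and in the DDX6 IP at 694 ± 257 CPM on the 12-library scale, whereas the eIF4A2 IP stood at 3372 ± 2027 CPM and the eIF4A1 IP at 1719.9 ± 349.7 CPM (SD, n = 3). Summed over the 3 genes, without TMM scaling, the eIF4A1 IP held 4834, 3601 and 3929 CPM, above the 1595 to 1656 CPM of total RNA and overlapping the 4276 to 11984 CPM of the eIF4A2 IP, so a level above total RNA was seen in both eIF4A IPs.

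Other abundant RNAs on the eIF4A2 side included messages for nuclear proteins. ZC3H13, a subunit of the m6A methyltransferase complex, was at 420, 281 and 281 CPM against 115, 62.4 and 83.6 CPM (1.91 ± 0.26, FDR = 0.0113). DDX39B, a DEAD-box helicase of splicing and mRNA export, was at 283, 221 and 421 CPM against 112, 96.7 and 103 CPM (1.57 ± 0.23, FDR = 0.0113). In both, the lowest eIF4A2 IP library was above the highest DDX6 IP library, which the rule for the largest differences required of ZC3H13. The DDX39B locus on chromosome 6 overlaps the readthrough gene ATP6V1G2-DDX39B and the snoRNAs SNORD117 and SNORD84, so the value of DDX39B is uncertain. The long noncoding RNA LINC00205 (chr21:46707950-46717721) was at 88.7, 66.9 and 73.7 CPM against 23.8, 21.1 and 23.8 CPM (1.74 ± 0.15, FDR = 0.00946), and RP11-215G15.5, which was not placed in the annotation, differed by 1.99 ± 0.19. EPPK1, LA16c-313D11.12, ANKRD19P, C1orf63 and RP11-54O7.3, also among the 12 largest differences, spanned 1.69 to 2.03 on the log2 scale.

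**Figure D2:**
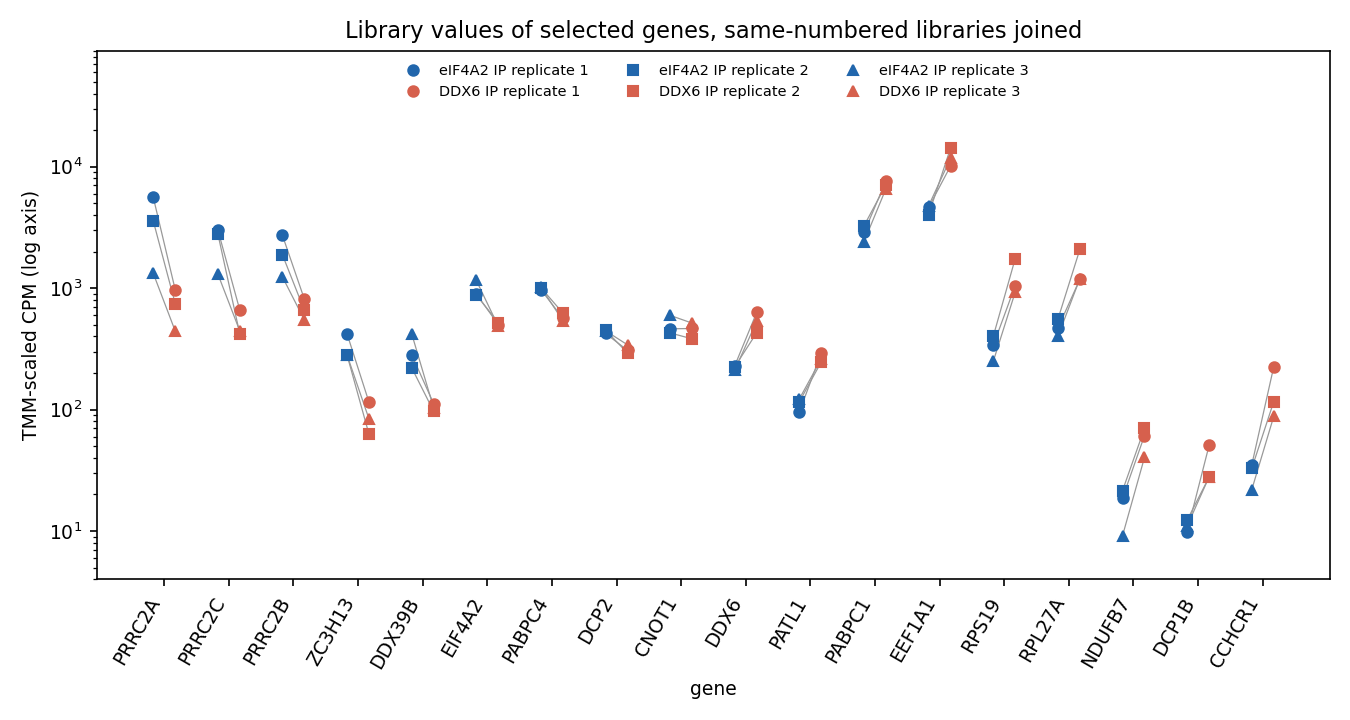
CPM of selected genes in each of the 6 libraries (log axis), eIF4A2 IP in blue and DDX6 IP in red, with replicates 1 to 3 as circles, squares and triangles and same-numbered libraries joined by a line. The lines fall from left to right for the PRRC2 genes, EIF4A2, PABPC4 and DCP2, rise for DDX6, PATL1, PABPC1, the ribosomal proteins, DCP1B and CCHCR1, and show no common direction for CNOT1.

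Messages for decapping and P-body factors were more often higher in the DDX6 IP. Of 31 listed members, 8 (25.8%, against 9.63% of all genes) were higher in the DDX6 IP and 1 in the eIF4A2 IP, with a median log2 fold change of -0.30 beside -0.02 for all genes. With the replicate block, 15 and 1 members were called (background 24.4% and 19.5%). Without eIF4A2 IP replicate 1, 4 were higher in the DDX6 IP, and without DDX6 IP replicate 2, 5. CCHCR1 (chr6:31110216-31126015, minus strand), which encodes a P-body protein, was at 35.0, 32.7 and 21.9 CPM in the eIF4A2 IP and at 225, 116 and 87.8 CPM in the DDX6 IP, the largest difference towards DDX6 by the rule (-2.26 ± 0.35, FDR = 0.0113). The DDX6 IP libraries were spread more than 2-fold among themselves. The lowest of them was above every eIF4A2 IP library, which the rule that named the gene required. In total RNA, CCHCR1 mRNA stood at 39.6 ± 3.27 CPM (SD, n = 3).

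The decapping coactivators followed the same direction. DCP1B was at 9.91, 12.3 and 11.0 CPM against 50.7, 27.7 and 27.9 CPM (-1.68 ± 0.25, FDR = 0.0113), and its paralog DCP1A, named after its values were seen, at 102, 92.6 and 111 CPM against 383, 195 and 264 CPM (-1.46 ± 0.24, FDR = 0.0115). PATL1, the Pat1 homologue that bridges DDX6 and the LSM ring, was at 95.8, 116 and 123 CPM against 295, 248 and 262 CPM (-1.26 ± 0.15, FDR = 0.0109). DDX6 IP replicate 1 was the highest library for CCHCR1, DCP1A, DCP1B and PATL1. The rest of the 8, which were EDC3, LSM14A, LSM3 and LSM7, differed by -0.81, -0.76, -1.07 and -0.93. DCP2, the catalytic subunit of the decapping enzyme, went the other way, at 423, 450 and 446 CPM in the eIF4A2 IP against 307, 292 and 341 CPM in the DDX6 IP (0.49 ± 0.14, FDR = 0.0433), and was called in none of the fits that left out a library. The scaffold EDC4 (0.07) and the exonuclease XRN1 (0.05), also named after their values were seen, did not pass the test.

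Deadenylase messages differed in both directions. Of 19 listed members, 4 were higher in the DDX6 IP (21.1%, against 9.63% of all genes) and 1 in the eIF4A2 IP (5.26%, against 8.27%), with a median of -0.10, and 7 and 2 with the replicate block (background 24.4% and 19.5%). The poly(A) nuclease subunit PAN2 was at 98.2, 62.9 and 102 CPM against 58.6, 35.8 and 48.9 CPM (0.88 ± 0.24, FDR = 0.0374). The ubiquitin ligase subunit CNOT4 (-0.63 ± 0.13, FDR = 0.0176), the ribonuclease PARN (-0.48 ± 0.12, FDR = 0.0315) and the antiproliferative adaptor BTG2 (-0.53 ± 0.14, FDR = 0.0386) were higher in the DDX6 IP, as was the deadenylase CNOT7 (-0.83).

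The cytoplasmic poly(A)-binding proteins were split between the IPs. PABPC1 (chromosome 8) was at 2871, 3264 and 2414 CPM in the eIF4A2 IP and at 7650, 7100 and 6597 CPM in the DDX6 IP (-1.32 ± 0.21, FDR = 0.0113). PABPC4, its paralog, was at 971, 1007 and 1015 CPM in the eIF4A2 IP and at 564, 623 and 538 CPM in the DDX6 IP (0.79 ± 0.15, FDR = 0.0141). Neither gene's libraries overlapped between the IPs, and the call of PABPC4 was lost, at an FDR of 0.0513 to 0.0526, without eIF4A2 IP replicate 1, DDX6 IP replicate 1 or DDX6 IP replicate 3. Both mRNAs were lower in total RNA than in either IP, at 1246 ± 91.2 CPM for PABPC1 and 410 ± 44.9 CPM for PABPC4 (SD, n = 3).

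None of the 7 genes for GW182 and Argonaute proteins, the effectors of miRNA silencing, was called without the block. With the block, AGO3 (0.31 ± 0.12) and AGO4 (0.38 ± 0.15) were called higher in the eIF4A2 IP, at FDRs of 0.017 and 0.0070 beside 0.105 and 0.110 without it. TNRC6A, TNRC6B and TNRC6C lay at -0.31, -0.03 and -0.15 with overlapping libraries. Of 14 genes of miRNA processing, 4 were higher in the eIF4A2 IP (28.6%, against 8.27% of all genes) and 1 in the DDX6 IP (7.14%, against 9.63%). DICER1, which cuts the pre-miRNA hairpin, was at 293, 284 and 296 CPM against 198, 162 and 207 CPM (0.62 ± 0.14, FDR = 0.0238), and DGCR8, the partner of Drosha, at 190, 190 and 213 CPM against 124, 127 and 117 CPM (0.69 ± 0.13, FDR = 0.0132). DDX5 (0.78) and DDX17 (0.85), helicases of the Drosha complex, were higher as well, and LIN28B, which blocks let-7 maturation, was higher in the DDX6 IP (-0.50 ± 0.13, FDR = 0.0325). Of 16 known let-7 target messages, 4 were higher in the DDX6 IP (25%, against 9.63% of all genes), among them HMGA1 (-1.18), NRAS (-0.75) and HMGA2 (-0.72), and DICER1 was the 1 higher in the eIF4A2 IP.

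Messages for cytosolic ribosomal proteins were nearly all higher in the DDX6 IP. Of 48 large subunit genes, 46 (95.8%) were higher in the DDX6 IP, with a median of -1.35, and of 32 small subunit genes, 29 (90.6%), with a median of -1.25, against 9.63% of all genes. RPS19 (chr19:42364325-42376993) was at 338, 401 and 249 CPM in the eIF4A2 IP and at 1050, 1753 and 928 CPM in the DDX6 IP (-1.92 ± 0.29, FDR = 0.0113). RPL27A was at 469, 554 and 400.3 CPM against 1181, 2085 and 1196 CPM (-1.65 ± 0.26, FDR = 0.0113). In both, DDX6 IP replicate 2 was the highest library, and the lowest DDX6 IP library was more than 2-fold above the highest eIF4A2 IP library. Separation of the IPs was itself required by the rule that named both genes. RPS15 and RPL18, also among the 12 largest differences on this side, spanned -1.69 to -1.62, and the call of RPS15 was lost without eIF4A2 IP replicate 1. Among the ribosomal protein genes not called were RPL17, RPSA and RPS2, of which RPSA and RPS2 were called with the block.

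RPL36A was the exception, at 21.2, 22.2 and 48.6 CPM in the eIF4A2 IP and 5.72, 6.42 and 8.47 CPM in the DDX6 IP (2.16 ± 0.34, FDR = 0.0113). Its locus (chrX:100645812-100651143) lies within the readthrough gene RPL36A-HNRNPH2, and ribosomal protein genes have many processed copies in the genome, so the level of RPL36A is uncertain. Taken over the family, large subunit messages held 1.98 to 2.38% of all counts in the eIF4A2 IP, 3.98 to 5.77% in the DDX6 IP and 4.24 to 5.44% in total RNA. Small subunit messages held 1.76 to 2.10%, 3.17 to 4.94% and 2.86 to 3.60%. The DDX6 IP range therefore overlapped that of total RNA, and the eIF4A2 IP range lay below both. Without eIF4A2 IP replicate 1, 20 large subunit and 7 small subunit genes were called higher in the DDX6 IP.

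Ribosomal protein mRNAs belong to the 5′ terminal oligopyrimidine (TOP) class, whose messages begin with a C and a run of pyrimidines and are controlled together through mTOR and LARP1. A list of 15 other TOP messages was added after the ribosomal protein values were seen. It held 10 genes higher in the DDX6 IP (66.7%, against 9.63% of all genes) and 0 higher in the eIF4A2 IP, with a median of -0.94. EEF1A1, which encodes the elongation factor that brings tRNA to the ribosome, was at 4620, 4034 and 4768 CPM against 10142, 14283 and 11741 CPM (-1.43 ± 0.23, FDR = 0.0113). EIF3H differed by -1.04 ± 0.17, while EEF2 (-0.96), NPM1 (-0.27) and VIM (-0.27) of the same list did not pass the test. The annotated transcript starts (GENCODE release 44, GRCh37, read from the genome) show the class for RPS19 and RPL27A, but not for RPS15 as annotated nor for PRRC2A. Their first 20 bases are given with the unbroken run of pyrimidines from the first base in capitals, where RPS19 starts at base 42364325 of chromosome 19, RPL27A at 8704339 of chromosome 11, RPS15 at 1438395 of chromosome 19 and PRRC2A at 31588492 of chromosome 6, all on the plus strand. These 4 were chosen after their values were seen.
RPS19: CCCTTTCCCCTggctggcag
RPL27A: CTTTTTCgtctgggctgcca
RPS15: Caaagcgatctcttctgagg
PRRC2A: agtcggggctcagccgcgga
A run of at least 5 pyrimidines, counting a C as its first base, opened 5.3% of 12853 annotated transcripts. It opened 4.0% of 856 higher in the eIF4A2 IP and 10.6% of 1404 higher in the DDX6 IP. The latter was 7.1% of 1332 once the cytosolic ribosomal proteins were left out. Among 77 ribosomal protein transcripts it was 75.3%. An annotated start can differ from the start used in HEK293 cells, and an absent run says only that these letters are not at this position.

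Messages for mitochondrial proteins encoded in the nucleus were also higher in the DDX6 IP. Of 76 respiratory chain genes, 49 (64.5%) were higher in the DDX6 IP and 0 in the eIF4A2 IP, with a median of -0.93. Of 75 mitochondrial ribosomal proteins, 39 (52%) and 1 were, with a median of -0.69. Of all genes, 9.63% and 8.27% were. NDUFB7, a complex I subunit, was at 18.6, 21.5 and 9.14 CPM against 61.0, 69.9 and 40.3 CPM (-1.80 ± 0.33, FDR = 0.0128). MRPL54 differed by -1.76 ± 0.30, NDUFB11 by -1.40 ± 0.17 and COX6A1, a subunit of cytochrome oxidase, by -1.15 ± 0.15. With the block, 71 respiratory chain and 64 mitochondrial ribosomal protein genes were higher in the DDX6 IP (background 24.4%), and without eIF4A2 IP replicate 1, 13 and 8. Leaving out DDX6 IP replicate 2 gave 29 and 19 genes, and mitochondrial ribosomal proteins fell to 22 called genes without eIF4A2 IP replicate 3 or DDX6 IP replicate 1. Transcripts of the mitochondrial genome were too few to test, at 0.231 to 2.19 CPM in all per library.

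Other housekeeping classes went the same way in part. Of 34 proteasome genes, 13 were higher in the DDX6 IP (38.2%, against 9.63% of all genes) and 0 in the eIF4A2 IP, with PSMB6 at -1.20 ± 0.20. Of 14 chaperones of the endoplasmic reticulum, 6 were higher in the DDX6 IP (42.9%, against the same 9.63%), with MANF at -0.95 ± 0.19 and CALR at -0.79 ± 0.16, and HSP90B1 was higher in the eIF4A2 IP (0.55 ± 0.16). Of 39 initiation factor genes, 11 were higher in the DDX6 IP (28.2%, against 9.63%), including the eIF3 subunits EIF3L (-1.01 ± 0.14) and EIF3I (-0.86 ± 0.14), and the 2 higher in the eIF4A2 IP were EIF4A2 and EIF4A1. EIF4EBP1, which encodes the mTOR-controlled inhibitor of eIF4E, was at 22.8, 35.0 and 14.5 CPM against 74.9, 125 and 55.6 CPM (-1.82 ± 0.37, FDR = 0.0173). YBX1 (-1.64 ± 0.41), for a cold shock protein that coats mRNA, and MIF (-1.77 ± 0.21), for a small cytokine, were the remaining genes among the 12 largest on this side. None of the 8 genes of the CCT chaperonin was called, at -0.41 to -0.09, and 3 were higher in the DDX6 IP with the block. Of 20 aminoacyl-tRNA synthetases, 2 (10%) were higher in the DDX6 IP, and of 30 SR and hnRNP genes, 2 (6.67%), both near the 9.63% of all genes. Of 50 DEAD and DEAH box helicases, 6 were higher in the eIF4A2 IP (12%, against 8.27% of all genes) and 0 in the DDX6 IP, at a median of -0.06. With the block, 9 and 12 were, shares near the 19.5% and 24.4% of all genes. Members were called in both directions among 14 genes of nonsense-mediated decay (1 and 1), 15 snoRNA host genes (1 and 1, or 2 and 5 with the block) and 17 replication-dependent histones (2 and 2). Their shares without the block, 6.67 to 11.8% in each direction, were near those of all genes. None was called among 17 basement membrane collagens and laminins or the 6 HEK293 markers, the latter at a median of -0.41. With the block, 4 of the collagens and laminins were higher in the eIF4A2 IP, and 4 of the HEK293 markers, VIM, KRT18, NEFL and NEFM, were higher in the DDX6 IP.

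Zinc finger messages and noncoding transcripts were called more often on the eIF4A2 side. Of 461 numbered ZNF genes, 83 (18%, against 8.27% of all genes) were higher in the eIF4A2 IP and 12 (2.6%, against 9.63%) in the DDX6 IP, with a median of 0.20. With the block, 171 and 36 were (background 19.5% and 24.4%). Without eIF4A2 IP replicate 1, 24 were higher in the eIF4A2 IP, and without DDX6 IP replicate 1, 2 or 3, 40, 40 and 43. ZNF324B was at 86.0, 76.6 and 66.6 CPM against 29.1, 31.6 and 28.2 CPM (1.37 ± 0.14, FDR = 0.0109), with ZNF778 (1.28) and ZNF266 (1.26) next. Of 35 large chromatin regulators, 4 were higher in the eIF4A2 IP (11.4%, near the 8.27% of all genes) and 0 in the DDX6 IP, with 8 and 2 under the block against 19.5% and 24.4% of all genes. The called members included ASXL1 (0.96 ± 0.16), NSD1 (0.76 ± 0.16) and KMT2E (0.66 ± 0.14). Small nucleolar RNAs were rare in these poly(A)-selected libraries, at 83.5 to 133 CPM over the whole snoRNA and scaRNA class in the eIF4A2 IP and 55.9 to 67.8 CPM in the DDX6 IP, beside 74.0 to 101 CPM in total RNA (not scaled by TMM). Of 409 members counted, 62 passed the filter on low counts, of which 27 were higher in the eIF4A2 IP and 2 in the DDX6 IP. A rare RNA can pass this filter through the IP in which it is high, so these counts describe the members that passed and are no measure of the class. Without DDX6 IP replicate 2, 15 were called on the eIF4A2 side. All 5 nuclear-retained lncRNAs tested had positive values (0.44 to 0.76), of which TUG1 was called (0.76 ± 0.18, FDR = 0.0265) and NEAT1, MALAT1, MIAT and KCNQ1OT1 were not, although NEAT1 and MALAT1 were with the block (FDR = 0.00205 and 0.0290). By annotated class, 66 of 506 lncRNAs (13.0%) and 51 of 311 pseudogenes (16.4%) were higher in the eIF4A2 IP, against 887 of 13448 protein-coding genes (6.6%), and 1543 protein-coding genes (11.5%) were higher in the DDX6 IP.

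**Figure D3:**
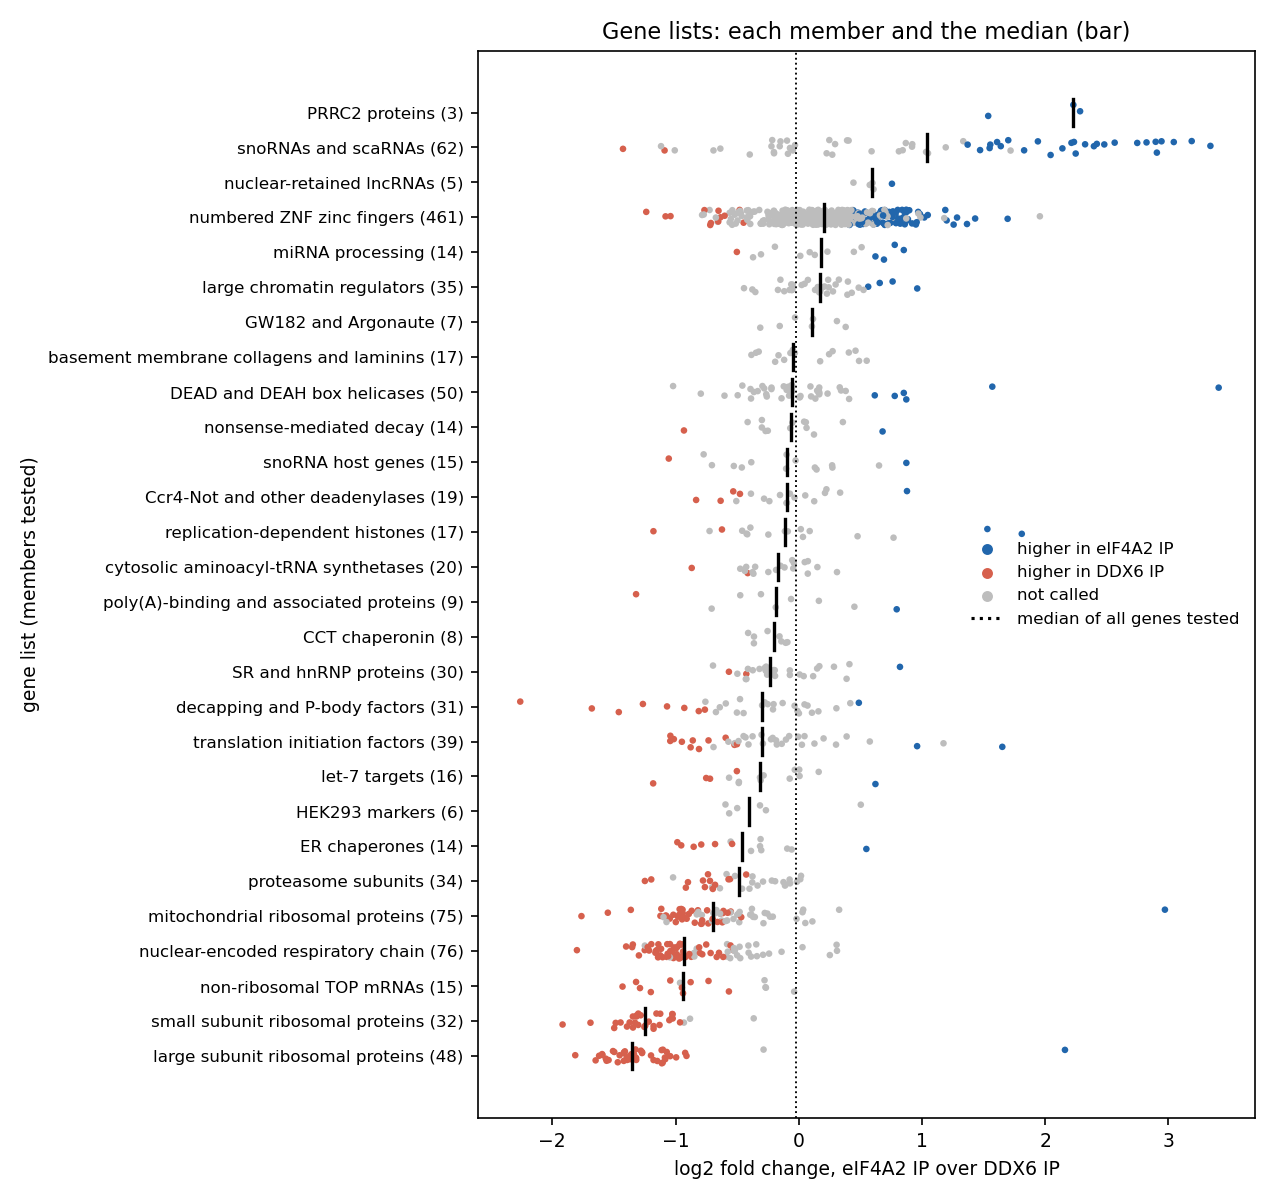
Log2 fold change (eIF4A2 IP over DDX6 IP) of every tested member of each gene list, ordered by the median (black bar), with called members in blue or red and the number tested in brackets. The PRRC2 genes lie at the top, the cytosolic ribosomal proteins, TOP messages and nuclear-encoded mitochondrial proteins at the bottom with medians from -0.69 to -1.35, and the dotted line is the median of all genes.

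Coding messages on the DDX6 side were short. Their median coding sequence (CDS) was 741 nt, against 1713 nt for those higher in the eIF4A2 IP and 1437 nt for all coding genes tested. This rests on 1543 of the 1621 genes on the DDX6 side but on 884 of the 1392 on the eIF4A2 side, so that for the latter it describes the coding members only and a statement on all 1392 would be void. The median 5′UTR was 75 nt against 195 and 146 nt, and the median 3′UTR 941 nt against 1802 and 1344 nt. In the decile with the shortest coding sequences (78 to 561 nt), 36.2% of 1348 genes were higher in the DDX6 IP and 2.6% in the eIF4A2 IP, with a median of -0.57. In the decile with the longest (3597 to 26778 nt), 0.22% and 6.99% of 1344 genes were, with a median of 0.16. Across 13439 coding genes CDS length and fold change had a Spearman rho of 0.41, a description over genes measured in the same libraries, and the 3 same-numbered library pairs gave 0.40, 0.51 and 0.23. The CDS difference was larger among genes at least 2-fold apart, at 498 nt (345 coding of 388 genes) and 1606.5 nt (236 coding of 526 genes). The CDS medians were 606 and 1602 nt among the 206 and 313 genes called in all 6 fits that left out a library. For the genes at least 2-fold apart, the median 3′UTR was 430 nt on the DDX6 side and 1074 nt on the eIF4A2 side. Both lay below the 1344 nt of all coding genes. The ribosomal and mitochondrial proteins above are short, and their part in the length difference was not tested.

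**Figure D4:**
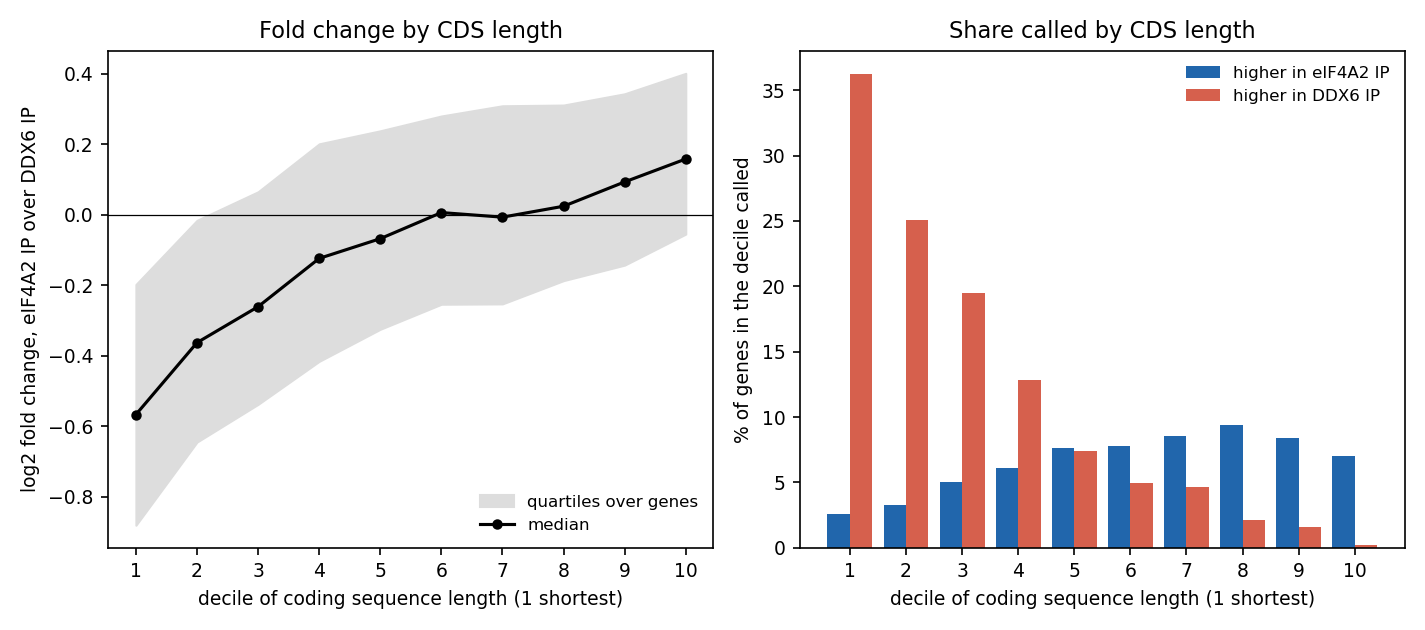
Left, median log2 fold change (eIF4A2 IP over DDX6 IP) with the quartiles over genes as a grey band, in deciles of coding genes from the shortest to the longest coding sequence. Right, percent of the genes of each decile called higher in the eIF4A2 IP (blue) or the DDX6 IP (red); the red bars fall from 36.2% to 0.22% and the blue bars range from 2.6 to 9.42%.

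Median base composition of the called genes differed between the sides in coding sequences and 3′UTRs more than in 5′UTRs. GC content at the third codon position had a median of 62.44% on the eIF4A2 side, 56.6% on the DDX6 side and 59.42% in all coding genes. It was 69.72% against 54.71% within the second quartile of CDS length and 55.59% against 55.39% within the longest. GC content of the whole CDS had medians of 54.2%, 50.74% and 52.45%, that of the 3′UTR 44.52%, 40.75% and 42.19%, and that of the 5′UTR 66.74%, 67.19% and 67.56%. These medians describe genes called in the same libraries and were not tested. Across genes, the Spearman rho with the fold change was 0.048 for the third codon position, 0.07 for the CDS and 0.069 for the 3′UTR. Same-numbered library pairs 1, 2 and 3 gave 0.041, -0.022 and 0.092 for the third position. They gave 0.062, 0.006 and 0.101 for the CDS, and 0.049, -0.022 and 0.147 for the 3′UTR. The 8 purine tetramers searched, which were AAGA and its shifted form AGAA, then GAAA as well as GAGA, further AGAG along with GGAA, and finally AAAA together with GAAG, counted without overlap on the sense strand, stood at a median of 1.75 per 100 nt of 5′UTR on the eIF4A2 side, 1.52 on the DDX6 side and 1.68 in all. In the CDS they stood at 2.97, 3.17 and 3.00, with 2.20 against 3.25 in the quartile of shortest CDS and 3.34 against 2.94 in the longest. In the 30 nt before the start codon, at least 1 tetramer was found in 46.2% of 825 windows on the eIF4A2 side, in 41.5% of 1237 on the DDX6 side and in 44.9% of all 12191 windows. The window is shown for 3 genes at the extremes of the fold change, 5′ to 3′ and ending at the base before the start codon, with tetramers in capitals. PRRC2A is read from chr6:31590537-31590566 and RPS19 from chr19:42364330-42364359 on the plus strand, and ZC3H13 is spliced from chr13:46626539-46626559 and chr13:46619643-46619651 on the minus strand (GRCh37).
PRRC2A: acccaacatactcaatgagcttccagcgca
ZC3H13: cGAAGggagcttggggaGGAAtagtacaaa
RPS19: tcccctggctggcagcgcggaggccgcacg
ZC3H13 holds 2 tetramers, while PRRC2A and RPS19 hold none. A match is a description of the letters and not a site.

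The genes of the 2 sides lay at opposite positions in sucrose gradients, a readout that the IP comparison did not use. Of these libraries, 2 go against their labels in the mRNA that the siRNA targets: CNOT1 was at 27.4 CPM in control siRNA polysomal replicate 3, against 447, 460.5 and 469 CPM in the other control polysomal libraries, and at 590 CPM in the CNOT1 siRNA polysomal replicate 3, against 22.9 to 31.5 CPM in the others. Polysome position is the log2 ratio of polysomal to subpolysomal CPM (pseudocount 0.5 CPM), as the median over a group of genes minus the median over all 13556 genes of the readout. In the gradients labelled control siRNA, the 1138 genes higher in the eIF4A2 IP stood at -0.945, -0.911, -1.067 and -0.842, a mean of -0.94 ± 0.09 (SD, n = 4), and thus below the median gene in every gradient. The 1575 genes higher in the DDX6 IP stood at 0.717, 0.654, 0.316 and 0.674 (0.59 ± 0.19), above it in every gradient. Without replicate 3, the means were -0.90 and 0.68. Among coding genes alone, measured against the coding median, the positions were -0.86 ± 0.07 (799 genes) and 0.48 ± 0.21 (1521 genes), and without the ribosomal proteins the DDX6 side stood at 0.64 ± 0.18. In the gradients labelled CNOT1 siRNA, given side by side, the eIF4A2 side stood at -0.748, -0.668, -0.433 and -0.697 and the DDX6 side at 0.363, 0.379, 0.437 and 0.439. The part of coding length and of noncoding RNA in these positions was not tested.

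**Figure D5:**
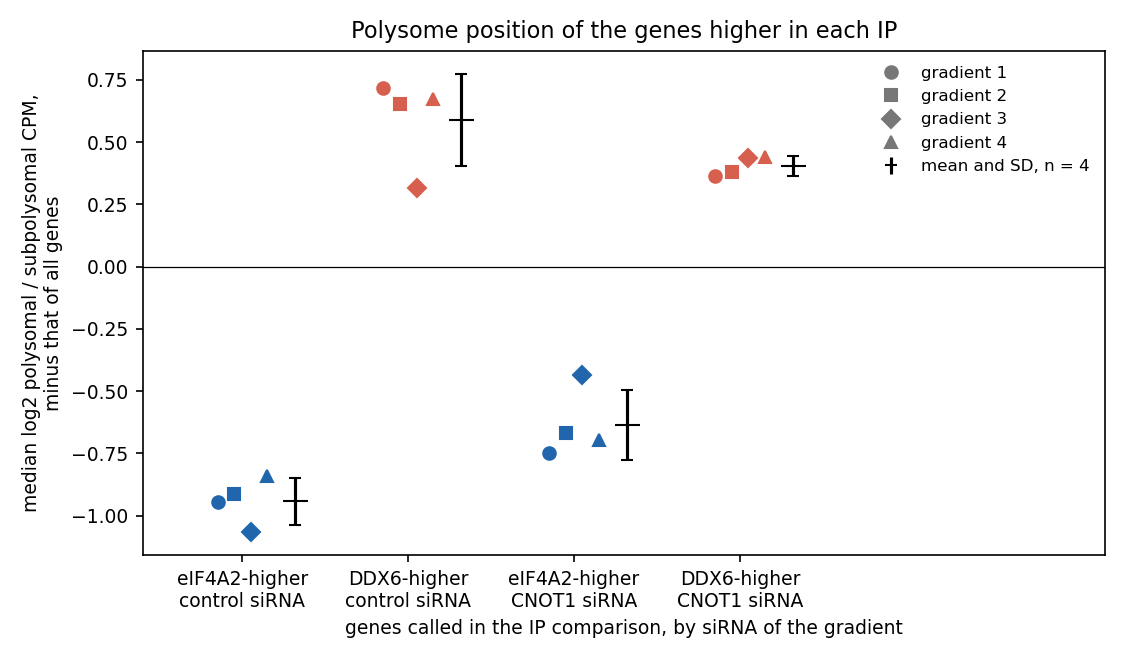
Median log2 ratio of polysomal to subpolysomal CPM, minus the median of all genes, for the genes higher in the eIF4A2 IP (blue) and in the DDX6 IP (red), in each of the 4 gradients labelled control siRNA and the 4 labelled CNOT1 siRNA, with mean and SD (black). All 8 blue points lie below 0 and all 8 red points above it; gradient 3, whose polysomal libraries go against their labels, is the diamond.

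Neither side moved far in the libraries labelled TNRC6A/B siRNA, which targets the GW182 proteins TNRC6A and TNRC6B that link Argonaute to Ccr4-Not. The mRNA levels of TNRC6A and TNRC6B in these libraries were not examined here. In total RNA, the median log2 change with TNRC6A/B siRNA, relative to all 12660 genes, was -0.064 and -0.105 over 1024 genes higher in the eIF4A2 IP in the 2 same-numbered library pairs, and -0.055 and 0.031 over 1553 genes higher in the DDX6 IP. The values of the eIF4A2 side were below 0 in both pairs, and those of the DDX6 side differed in sign. Among coding genes alone, against the coding median, the eIF4A2 side stood at -0.044 and -0.082 (760 genes). The DDX6 side stood at -0.07 and 0.016 (1514 genes).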

How the data were processed

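The deposited files hold counts, 1 whole number per gene symbol and library, which the authors made by aligning TruSeq Stranded mRNA reads to hg19 with TopHat2 and counting with htseq-count (the submitters' notes also name bcl2fastq 2.0). The strand option is not given in the sources used here. A deposited file of the authors' edgeR comparisons with total RNA, which holds fold changes and p-values, was not used. Reads carry no molecular identifiers, so depth describes counting error only.

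Groups came from sample titles. Genes were kept by filterByExpr (16830 of 55765 symbols), scaled by TMM and tested with the quasi-likelihood F-test of edgeR 4.0.16 (R 4.3.3, limma 3.58.1) on the 6 libraries alone, two-sided, with Benjamini-Hochberg FDR below 0.05 over all genes tested. CPM are TMM-scaled, and total RNA levels are scaled over the 12 RIP libraries. The fit was tested on simulated data. A second fit added the replicate number as a block, since libraries sharing a number departed together from the means of their IPs (correlations of 0.533, 0.496 and 0.532 over 16830 genes, and -0.471 to -0.077 for other pairs). No libraries agreed within sampling noise. The comparison was also run with DESeq2 1.42.0, with RLE in place of TMM, without the filter, with all 12 RIP libraries in the fit, after thinning to the smallest library, and leaving out each library.

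The members and the 30 gene lists were chosen with earlier results of these data known, and lists are described by counts and medians without a set test. Named genes are EIF4A1, EIF4A2, DDX6 and CNOT1, the 12 largest log2 fold changes in each direction among called genes whose mean reached 10 CPM and whose IPs did not overlap, up to 3 called members with the lowest FDR per list and direction, and all members of lists of at most 8. DCP1A, EDC3, EDC4, XRN1, LSM14A, LSM3, LSM7, CNOT7, DDX17, EEF2, NPM1, RPL17, RPSA and RPS2 were named after their values were seen. A few genes that the rule names are not reported here. Features came from 1 coding transcript per gene of GENCODE release 44 on GRCh37. Of the symbols tested, 14395 were placed at 1 locus (954 by an older symbol), 194 matched several loci and 2241 were not placed. Figures and tables used Python with pandas and matplotlib.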

Additional observations from a re-analysis of the deposited data

Results flagged for a closer look

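Of the 8 groups of 4 gradient values examined, 3 had a value farther from the rest than a Dixon test at 95% allows, a test that by chance flags about 1 in 20 groups. CNOT1 mRNA stood at 27.4 CPM in control siRNA polysomal replicate 3, far below the other 3 libraries of its group, and at 589.8 CPM in CNOT1 siRNA polysomal replicate 3, far above the others. The polysome position of the genes higher in the DDX6 IP stood at 0.316 in gradient replicate 3, below the other 3 gradients, and this gradient holds the polysomal library just named. The corresponding subpolysomal libraries of replicate 3 held 257.4 CPM of CNOT1 with control siRNA and 91.6 CPM with CNOT1 siRNA, within the range of their groups.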

How the results depend on the processing

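With same-numbered libraries paired by the replicate block, 3290 genes were higher in the eIF4A2 IP and 4107 in the DDX6 IP, in place of 1392 and 1621, and 641 and 447 were at least 2-fold apart in place of 526 and 388. With genes called under the block, the polysome position of the eIF4A2 side was -0.647 in place of -0.941, and its TNRC6A/B siRNA change was -0.037 in place of -0.085. Leaving out 1 library gave 365 to 1190 genes higher in the eIF4A2 IP, 211 to 1342 higher in the DDX6 IP, and 242 to 609 and 134 to 591 at least 2-fold higher. The lowest values came without eIF4A2 IP replicate 1 (365, 211, 242 and 134), where 574 of the 3013 calls were kept and 63.4% of calls were on the eIF4A2 side, beside 46.2% with all libraries. The TNRC6A/B siRNA change of the DDX6 side, -0.012, was 0.031 without replicate 1 and -0.055 without replicate 2. DESeq2 kept 2910 of the 3013 calls, RLE factors 2928, no filter 2784, the 12-library fit 2871 and thinning 2701. There were 0 changes of direction, an outcome largely fixed in advance because 3011 of these genes had IPs without overlap. The cause of these shifts was not tested. Genes near the filter have few counts, and differences there were not detectable at this depth unless large.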
